A study of Homo sapiens with 12 samples.

Results

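Genes of the osteoblast lineage and of bone matrix were followed by RNA‐seq in HOS, a human cell line derived from an osteosarcoma: RUNX2, DLX1, DLX2, MSX1, MSX2, SPARC, SPP1, ALPL and TNFRSF11B. They were chosen by symbol, each matched to the row of its Ensembl identifier in the count table, and make up 9 of its 25141 genes. The study asked how the adaptor protein CIN85, encoded by SH3KBP1, affects osteosarcoma cells, and there were 4 groups of 3 libraries. Mock cells were HOS cells with the empty vector, and upCIN85 cells were HOS cells with the plasmid pRc/CMV2‐Rukl for full‐length CIN85. Both were pools selected with geneticin. HOS cells of the siNeg group received a non‐targeting siRNA, and those of the siCIN85 group a mix of 3 siRNAs against CIN85. Nothing in the labels says that libraries came from separate cultures, so p‐values measure the spread between these libraries, which may be technical.

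Osteoblasts arise from mesenchymal progenitors under the control of RUNX2, the master transcription factor of the lineage, while homeobox factors of the DLX and MSX families pattern the skeleton and act in osteoblast precursors. Maturing osteoblasts secrete collagen type I with SPARC (osteonectin), a collagen‐binding glycoprotein, and SPP1 (osteopontin), an acidic phosphoprotein bound by integrins and CD44. ALPL, the tissue‐nonspecific alkaline phosphatase, clears the mineralization inhibitor pyrophosphate, and TNFRSF11B (osteoprotegerin) is the decoy receptor that keeps RANKL from activating osteoclasts.

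Total counts ranged from 5334731 to 6049458 in the Mock and upCIN85 libraries and from 3540641 to 4174860 in the siRNA libraries. No libraries of a group shared their counts within sampling noise. SH3KBP1 was 77.5 ± 5.004 CPM in Mock and 81.3 ± 9.61 CPM in upCIN85 (CPM is the count scaled to a common library size; SD, n = 3; log2FC 0.07, SE 0.158, adjusted p = 0.887). These 3′ tags detect a plasmid transcript only if it carries the 3′ end of the gene, which the sources used here do not give, so the overexpression was not checked by them. The paper examined CIN85 protein in the selected pool by western blotting, which these tags do not measure. In the knockdown, SH3KBP1 fell from 85.1 ± 2.37 to 7.54 ± 3.19 CPM (log2FC -3.51, SE 0.208, adjusted p = 5.09e-08).

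Among the 9 members, the bone matrix gene SPARC stood far above the others, the 5 transcription factors lay in the middle range, and SPP1, TNFRSF11B and ALPL were close to the limit of detection. Levels are given as TMM‐normalized CPM. A 3′ end library yields tags from the end of each transcript, so its CPM does not scale with transcript length and needs no further correction for it when genes are compared. Over the 12 libraries, the mean level was 519.9 CPM for SPARC, 53.1 CPM for MSX1, 30.4 CPM for DLX2, 28.3 CPM for DLX1, 20.9 CPM for RUNX2 and 10.5 CPM for MSX2. It was 4.17 CPM for SPP1, 2.73 CPM for TNFRSF11B and 1.33 CPM for ALPL. By mean level, SPARC ranked 259 and ALPL 12524 among the 12542 genes with enough counts to be tested. All 9 members were tested, but ALPL reached 10 counts only in the 3 upCIN85 libraries. It passed the filter through the group in which it was high, so its call is no independent support for a difference.

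**Figure D1:**
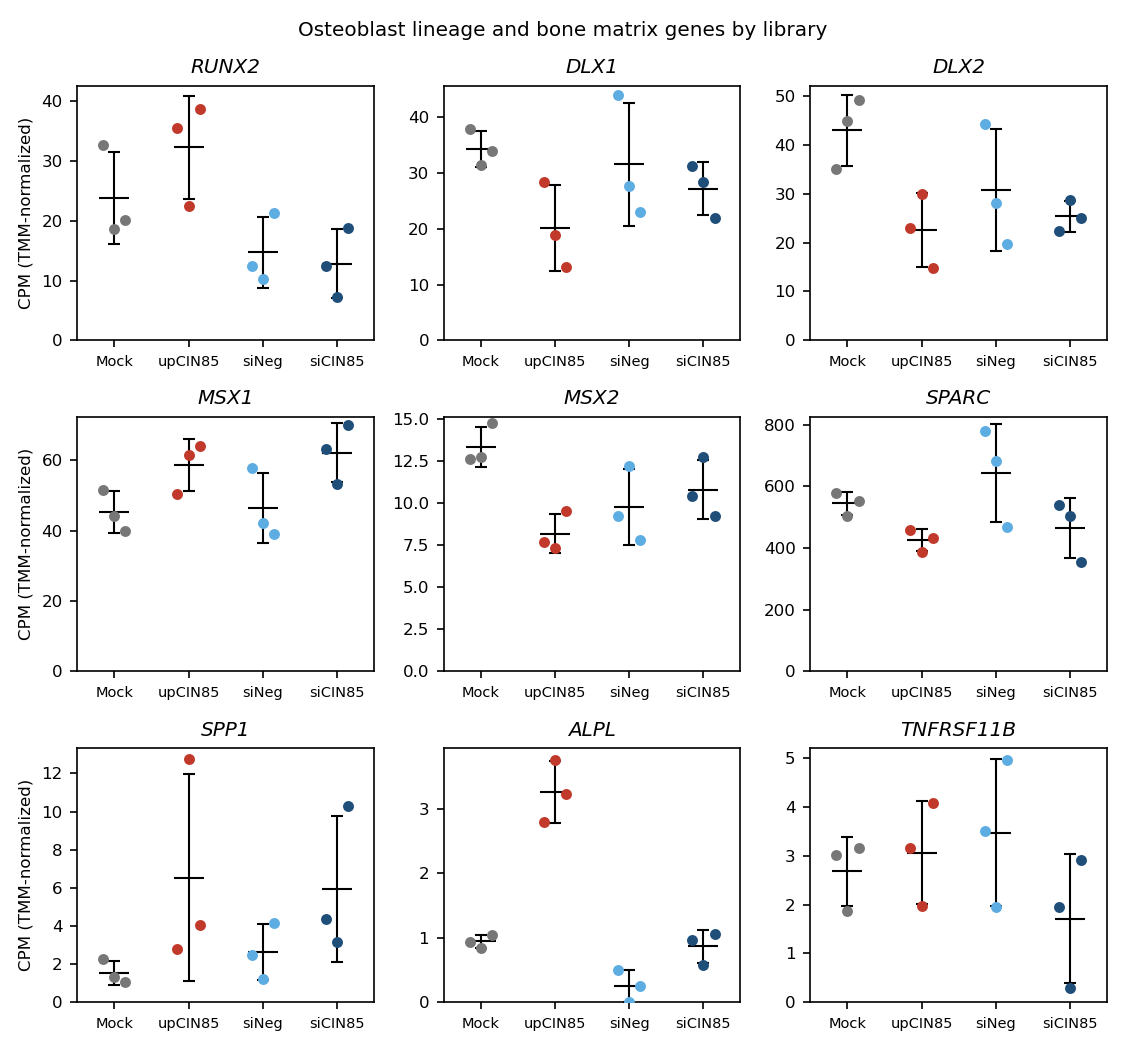
Level of each gene in the 12 libraries, in TMM‐normalized CPM on axes that start at 0, with points for libraries and bars for the mean ± SD of 3 libraries in Mock, upCIN85, siNeg and siCIN85. SPARC lay between 354 and 779 CPM, whereas ALPL stayed below 4 CPM in every library, with its 3 upCIN85 points above all others.

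The homeobox and RUNX factors can be placed beside short recognition cores that occur in some promoters of the same genes. RefSeq promoter windows (GRCh38.p14, 250 bases before to 50 after the annotated start) were matched for 8 members and were searched on both strands. The RUNX core TGTGGT, or ACCACA on the other strand, was found in the windows of 2 of 8 members, RUNX2 and SPP1, and in 13.1% of 35116 human promoter windows. The homeodomain core TAATT, or AATTA on the other strand, occurred in the windows of RUNX2 and MSX2 and in 24.8% of all windows. TATAAA was in none of the 8 windows and in 11.5% of all. The 3 windows with a match are shown because they belong to the lineage factor, to a bone matrix gene and to a homeobox gene of this set, with matches to the first or second core in capitals. All 3 are on the plus strand, at chr6:45328080-45328379 for RUNX2, chr4:87975464-87975763 for SPP1 and chr5:174724332-174724631 for MSX2, and are read 5′ to 3′.
RUNX2 promoter: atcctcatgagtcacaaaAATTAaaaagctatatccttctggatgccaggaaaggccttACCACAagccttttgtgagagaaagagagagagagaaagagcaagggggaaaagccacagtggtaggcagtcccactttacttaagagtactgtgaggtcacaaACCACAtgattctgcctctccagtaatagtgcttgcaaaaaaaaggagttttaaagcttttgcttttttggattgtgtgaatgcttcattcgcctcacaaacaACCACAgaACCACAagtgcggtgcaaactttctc
SPP1 promoter: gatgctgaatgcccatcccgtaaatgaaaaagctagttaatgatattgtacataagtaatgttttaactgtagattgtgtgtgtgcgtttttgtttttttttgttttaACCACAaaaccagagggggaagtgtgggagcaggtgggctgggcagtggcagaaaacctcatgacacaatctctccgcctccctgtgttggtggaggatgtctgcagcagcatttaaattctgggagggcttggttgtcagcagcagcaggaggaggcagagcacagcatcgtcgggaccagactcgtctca
MSX2 promoter: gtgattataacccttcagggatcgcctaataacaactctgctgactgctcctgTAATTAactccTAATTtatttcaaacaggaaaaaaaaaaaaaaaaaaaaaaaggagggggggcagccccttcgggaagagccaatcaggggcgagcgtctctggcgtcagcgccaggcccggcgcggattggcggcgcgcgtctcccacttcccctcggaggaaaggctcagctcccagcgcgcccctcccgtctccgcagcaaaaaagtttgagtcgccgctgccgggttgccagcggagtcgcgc
RUNX2 held 4 copies of ACCACA, the last 2 of them past the start site at positions 267 to 272 and 275 to 280 of the window, and 1 copy of AATTA at positions 19 to 23. SPP1 held 1 copy of ACCACA at positions 109 to 114. In MSX2, TAATT at positions 54 to 58 overlapped AATTA at positions 55 to 59, and another TAATT stood at positions 65 to 69. Such letters are a description of the window and no measure of binding, and no chromatin data were analysed here.

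Members that passed the test were few. With libraries labelled upCIN85 set against Mock, 1 of 9 members was called, ALPL, against 1.23% of all tested genes (adjusted p below 0.05 in edgeR's quasi‐likelihood test). In siCIN85 versus siNeg, 0 of 9 were called, against 1.04% of tested genes, where 131 genes passed and 1969 had an unadjusted p below 0.05. DESeq2 called 0 of the 7 members to which it gave an adjusted p there. However, 1 member, SPARC, was called with either replicate block, with no filter on low counts and without siNeg replicate 3. In siNeg versus Mock, 0 of 9 were called, against 0.526% of tested genes (66 genes, with 1560 at an unadjusted p below 0.05). DESeq2 again called 0 of the 7 members with an adjusted p. A test of the difference between the upCIN85 and siCIN85 effects called 0 of 9 members, against 0.973% of tested genes (122 genes, with 1818 at an unadjusted p below 0.05). Groups of libraries did not overlap for 6 members in upCIN85 versus Mock, against 20.7% of tested genes, and for 1 member, ALPL, in siCIN85 versus siNeg, against 20.2%. Without ALPL, these counts were 5 of 8 and 0 of 8.

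RUNX2 (ENSG00000124813) lies on chromosome 6 at 45328157 to 45664349 (GRCh38, plus strand). Its level was 32.7, 18.7 and 20.2 CPM in the Mock libraries and 35.5, 22.6 and 38.8 CPM in the upCIN85 libraries. It was 12.5, 10.3 and 21.4 CPM in siNeg and 12.4, 7.23 and 18.7 CPM in siCIN85. RUNX2 was thus measured in every library, and the groups overlapped in both comparisons. The log2FC was 0.44 in upCIN85 versus Mock (SE 0.287, 95% interval -0.168 to 1.04, adjusted p = 0.517). It was -0.19 in siCIN85 versus siNeg (SE 0.347, 95% interval -0.919 to 0.544, adjusted p = 0.836). Between siNeg and Mock it differed by -0.70 (log2FC, SE 0.317, adjusted p = 0.38), and only the fit with no filter on low counts called it (adjusted p = 0.0194, against 1.5% of all genes in that fit). SUPT3H overlaps RUNX2 on the opposite strand and had 31 to 98 counts per library, and as the strand setting of the counting is not given in the sources used here, reads of these genes cannot be told apart with certainty.

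DLX1 and DLX2 are homeobox genes that point toward each other on chromosome 2 with 9761 bases between them. Both had lower values in upCIN85 than in Mock without passing the test. Alternative fits called DLX2 in 6 of 13 cases, DESeq2 among them, and DLX1 in 3 of 13. The paper lists DLX2 among genes lower in upCIN85. It also reports significant qPCR changes of DLX2 in both of its cell lines, with overexpression or knockdown. DLX2 (ENSG00000115844, 172099439 to 172102900, minus strand) was at 35.0, 44.8 and 49.1 CPM in Mock and at 22.9, 29.9 and 14.8 CPM in upCIN85. It was at 44.2, 28.1 and 19.8 CPM in siNeg and at 22.3, 28.6 and 25.1 CPM in siCIN85. Every Mock library lay above every upCIN85 library, whereas siNeg spanned the whole range of siCIN85. The log2FC of DLX2 in upCIN85 versus Mock was -0.93 (SE 0.249, 95% interval -1.46 to -0.404, adjusted p = 0.0729), a fold of 0.525. In siCIN85 versus siNeg it was -0.28 (SE 0.267, 95% interval -0.844 to 0.28, adjusted p = 0.649).

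DLX1 (ENSG00000144355, 172084740 to 172089677, plus strand) was at 37.8, 31.4 and 33.8 CPM in Mock and at 28.3, 19.0 and 13.1 CPM in upCIN85. In siNeg it was at 44.0, 27.6 and 22.9 CPM, and in siCIN85 at 31.3, 28.3 and 21.9 CPM. As for DLX2, the Mock and upCIN85 libraries did not overlap and the siRNA groups did. Its log2FC was -0.77 in upCIN85 versus Mock (SE 0.246, 95% interval -1.29 to -0.254, adjusted p = 0.129) and -0.21 in siCIN85 versus siNeg (SE 0.255, adjusted p = 0.729).

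MSX1 and MSX2, homeobox genes of the cranial and limb skeleton, differed in sign in upCIN85 versus Mock but not in siCIN85 versus siNeg. MSX2 (ENSG00000120149, chromosome 5 at 174724533 to 174730893, plus strand) was at 12.6, 12.7 and 14.7 CPM in Mock and at 7.69, 7.35 and 9.52 CPM in upCIN85. It was at 9.25, 12.2 and 7.81 CPM in siNeg and at 10.4, 12.7 and 9.24 CPM in siCIN85. All Mock libraries lay above those of upCIN85 and also above those of siNeg, and the siRNA groups overlapped. The log2FC was -0.70 in upCIN85 versus Mock (SE 0.202, 95% interval -1.13 to -0.28, adjusted p = 0.0887) and 0.14 in siCIN85 versus siNeg (SE 0.22, 95% interval -0.326 to 0.602, adjusted p = 0.805). In siNeg versus Mock it was -0.45 (SE 0.207, adjusted p = 0.39). The test of the difference between the effects gave -0.84 (SE 0.299, adjusted p = 0.198).

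MSX1 (ENSG00000163132, chromosome 4 at 4859666 to 4863936, plus strand) was the most abundant of the 5 factors. Its level was 51.5, 44.1 and 39.8 CPM in Mock and 50.4, 61.4 and 64.1 CPM in upCIN85. In siNeg it was 57.7, 42.3 and 39.1 CPM, and in siCIN85 63.1, 53.2 and 70.0 CPM. Its mean was higher in upCIN85 than in Mock and in siCIN85 than in siNeg, but the libraries overlapped in both comparisons. The log2FC was 0.38 in upCIN85 versus Mock (SE 0.159, 95% interval 0.0429 to 0.712, adjusted p = 0.276) and 0.42 in siCIN85 versus siNeg (SE 0.164, 95% interval 0.0761 to 0.769, adjusted p = 0.221). MSX1 was called in none of the 13 alternative fits of either comparison.

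SPARC (ENSG00000113140, chromosome 5 at 151661096 to 151687165, minus strand) was among the most abundant transcripts, above 97.9% of tested genes. It was at 577, 505 and 552 CPM in Mock and at 459, 387 and 434 CPM in upCIN85. In siNeg it was at 779, 683 and 468 CPM, and in siCIN85 at 539, 502 and 354 CPM. The Mock libraries lay above those of upCIN85, and siNeg replicate 3 fell among the siCIN85 libraries. The log2FC was -0.35 in upCIN85 versus Mock (SE 0.163, 95% interval -0.697 to -0.00906, adjusted p = 0.33). In siCIN85 versus siNeg it was -0.47 (SE 0.164, 95% interval -0.814 to -0.122, adjusted p = 0.174). The replicate numbers were taken to pair the knockdown libraries, which the labels do not state. In the fit that blocks on them there, SPARC was called as lower in siCIN85 (log2FC -0.46, adjusted p = 0.0102), against 3.42% of genes in that fit. Within each number, SPARC, RUNX2 and TNFRSF11B were lower in siCIN85 than in siNeg in 3 of 3 pairs. SPP1, ALPL, MSX1 and MSX2 were higher in 3 of 3, with ALPL at no more than 4 counts in any of these libraries. The share of all tested genes with 1 sign in all pairs was not computed, so no result is drawn from these signs. SPARC was also called without siNeg replicate 3 (log2FC -0.66, adjusted p = 0.0315, with 189 genes called).

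SPP1 (ENSG00000118785, chromosome 4 at 87975650 to 87983426, plus strand) was low. Its counts were 12, 8 and 6 in Mock and 16, 78 and 24 in upCIN85. They were 10, 5 and 16 in siNeg and 18, 11 and 39 in siCIN85. The mean was 1.56 ± 0.626 CPM in Mock against 6.54 ± 5.41 CPM in upCIN85, and 2.63 ± 1.48 CPM in siNeg against 5.95 ± 3.81 CPM in siCIN85 (SD, n = 3). A single library, upCIN85 replicate 2, held most of the upCIN85 counts, although the lowest upCIN85 library still lay above the highest Mock library. The log2FC was 2.08 in upCIN85 versus Mock (SE 0.587, 95% interval 0.837 to 3.31, adjusted p = 0.0848) and 1.14 without upCIN85 replicate 2 (adjusted p = 0.329). For siCIN85 versus siNeg, whose libraries overlapped, it was 1.19 (SE 0.607, 95% interval -0.0935 to 2.47, adjusted p = 0.356), and 0.53 without siCIN85 replicate 3 (adjusted p = 0.789).

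ALPL (ENSG00000162551, chromosome 1 at 21509372 to 21578412, plus strand) was the member that passed the test, at counts near the floor. Its counts were 5, 5 and 6 in Mock and 16, 23 and 19 in the libraries labelled upCIN85. They were 2, 0 and 1 in siNeg and 4, 2 and 4 in siCIN85. The 3 upCIN85 libraries lay above all 9 others. ALPL rose from 0.947 ± 0.102 CPM in Mock to 3.26 ± 0.481 CPM in upCIN85 (SD, n = 3; log2FC 1.76, SE 0.39, 95% interval 0.938 to 2.58, adjusted p = 0.034). In summed counts, 58 against 16, this was a ratio of 3.46 per effective library size (95% interval 1.96 to 6.45, for counting error only). The call was lost when any 1 of the 6 libraries was left out, Mock replicate 1, 2 or 3 or upCIN85 replicate 1, 2 or 3 (adjusted p between 0.0688 and 0.181), while the log2FC stayed between 1.64 and 1.85, and DESeq2 gave no adjusted p for ALPL. In these bulk libraries, more cells with the transcript and more transcript per cell cannot be told apart.

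Between the siRNA groups, ALPL had 10 summed counts in siCIN85 and 3 in siNeg, a ratio of 3.5 with a counting interval of 0.901 to 19.8 (adjusted p = 0.282 in the fit). The fitted log2FC was 1.70 (95% interval 0.144 to 3.27). The tested genes whose levels followed ALPL most closely over the 12 libraries were PRRC2A (Pearson r of log2 CPM 0.93), TRMT6 (0.92) and HCG11 (0.92), which share libraries and depth with it. This likeness is a description.

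TNFRSF11B (ENSG00000164761, on chromosome 8, minus strand) had counts of 16, 11 and 18 in Mock and of 18, 12 and 24 in upCIN85. It had 14, 8 and 19 counts in siNeg and 8, 1 and 11 in siCIN85. Groups overlapped in both comparisons, and the lowest library was siCIN85 replicate 2 with 1 count. The log2FC was 0.19 in upCIN85 versus Mock (SE 0.442, 95% interval -0.74 to 1.13, adjusted p = 0.888). It was -0.97 in siCIN85 versus siNeg (SE 0.528, 95% interval -2.08 to 0.144, adjusted p = 0.385), with 20 against 41 summed counts.

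**Figure D2:**
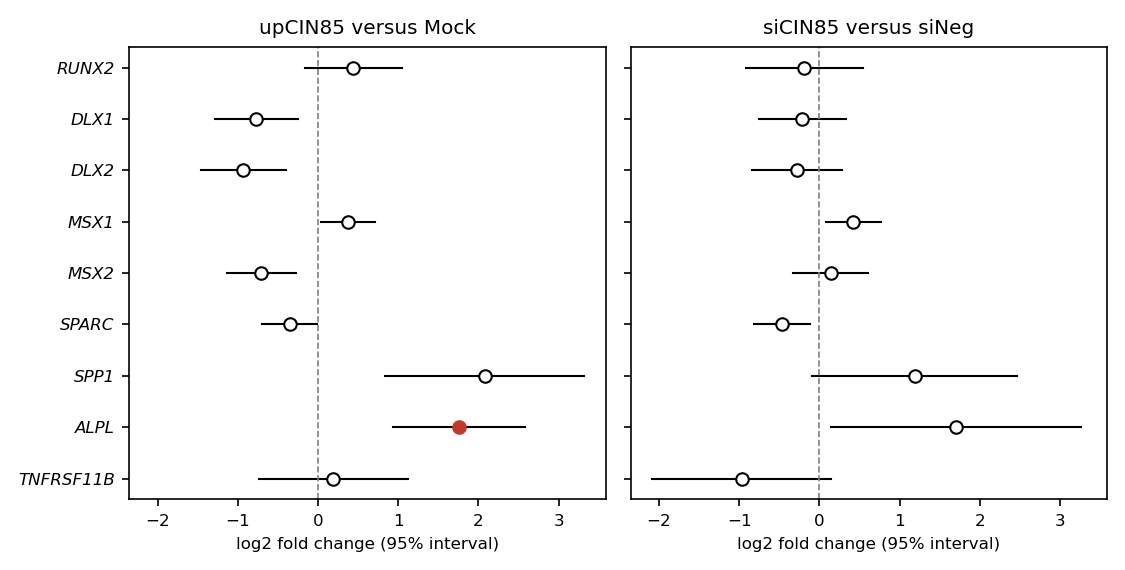
Log2FC of the 9 genes with 95% intervals in upCIN85 versus Mock (left) and siCIN85 versus siNeg (right), from the fit on 12 libraries, where filled red points have an adjusted p below 0.05. ALPL is the filled point at 1.76 on the left, DLX1, DLX2, MSX2 and SPARC lie below 0 there with open points, and the ALPL point on the right rests on 3 siNeg and 10 siCIN85 counts.

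When the groups were ordered by mean level, neighbours in that order had overlapping libraries for all members except ALPL. For ALPL, siNeg stood below siCIN85 and Mock below upCIN85 without overlap, while siCIN85 and Mock overlapped. The first of these rests on 2 counts in siNeg replicate 1 (0.500 CPM) and 2 in siCIN85 replicate 2 (0.578 CPM), which differ only in library scaling and lie below the level of 3 counts. DLX1, DLX2, MSX2 and SPARC had their lowest mean in upCIN85, and RUNX2, SPP1 and ALPL had their highest mean there. MSX1 had its highest mean in siCIN85, and TNFRSF11B its highest in siNeg.

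The number of members called in upCIN85 versus Mock differed between alternative fits. With a block for replicate number in the knockdown only, 6 members passed, SPP1, ALPL, SPARC, DLX1, DLX2 and MSX2, against 4.35% of genes, and with a block in both experiments the same 6 passed, against 8.25%. With no filter on low counts 5 members passed, these without MSX2, against 2.53%. DESeq2 called SPP1 and DLX2, against 2.5% of genes, and a fit of only the 6 libraries compared called ALPL and DLX2, against 2.28%. For siCIN85 versus siNeg, SPARC was called with no filter (against 2.45% of genes) and with a block in both experiments (7.72%). In upCIN85 versus Mock, DLX2 was called in 6 of its 13 alternative fits, ALPL in 5 of 12 and SPP1 in 4 of 12. DLX1 and SPARC were called there in 3 of 13 each and MSX2 in 2 of 13. The sign of each of these members was kept in all of its fits of that comparison.

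The wider set of osteoblast genes, in lists chosen with earlier results of these data known, showed which features HOS cells carried. Of 10 osteoblast lineage markers, 6 were tested. COL1A1 and COL1A2, the chains of collagen type I, had means of 733 and 68.3 CPM. CDH11, osteoblast cadherin, had 0 to 7 counts per library, IBSP (bone sialoprotein) at most 3, and SP7 and BGLAP were not analysed here. The summed level of these markers was 1157 to 1659 CPM in Mock, 1266 to 1935 CPM in upCIN85, 1203 to 1518 CPM in siNeg and 741 to 1064 CPM in siCIN85, so that siCIN85 lay below the other groups. This sum is mostly COL1A1 and SPARC.

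Summed levels of markers of other cell types were far lower, a contrast that rests on COL1A1, SPARC and COL1A2. The other tested osteoblast markers averaged 20.9 CPM (RUNX2), 4.17 CPM (SPP1) and 1.33 CPM (ALPL). No list of fibroblast markers was compared, so the contrast cannot tell osteoblasts from fibroblasts. Summed over each list, the osteocyte markers stayed between 13.995 and 28.8 CPM per library, with SOST at no more than 3 counts in each. Chondrocyte markers summed to 13.4 to 26.5 CPM, where ACAN and COMP had at most 3 counts per library, and adipocyte markers summed to 9.64 to 13.9 CPM, with PLIN1 at most 3. Osteoclast markers summed to 13.2 to 33.5 CPM, with OCSTAMP and CALCR at most 3 counts, and blood cell markers to 1.22 to 5.58 CPM, with PTPRC and CSF1R at most 3. The blood cell sum was 3.18 to 5.58 CPM in siCIN85 and 1.71 to 2.60 CPM in siNeg, without overlap, with 27 summed counts of CD68 in siCIN85 against 7 in siNeg. Its part in the lower osteoblast marker sum of siCIN85 was not tested. Most genes of these lists had too few counts to be tested: 1 osteocyte, 2 chondrocyte, 3 adipocyte, 2 osteoclast and 0 blood cell markers were. None of those tested was called, except that PDPN, an osteocyte marker, was lower in siCIN85 than in siNeg with the block in the knockdown. In that fit 3.42% of all tested genes were called.

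**Figure D3:**
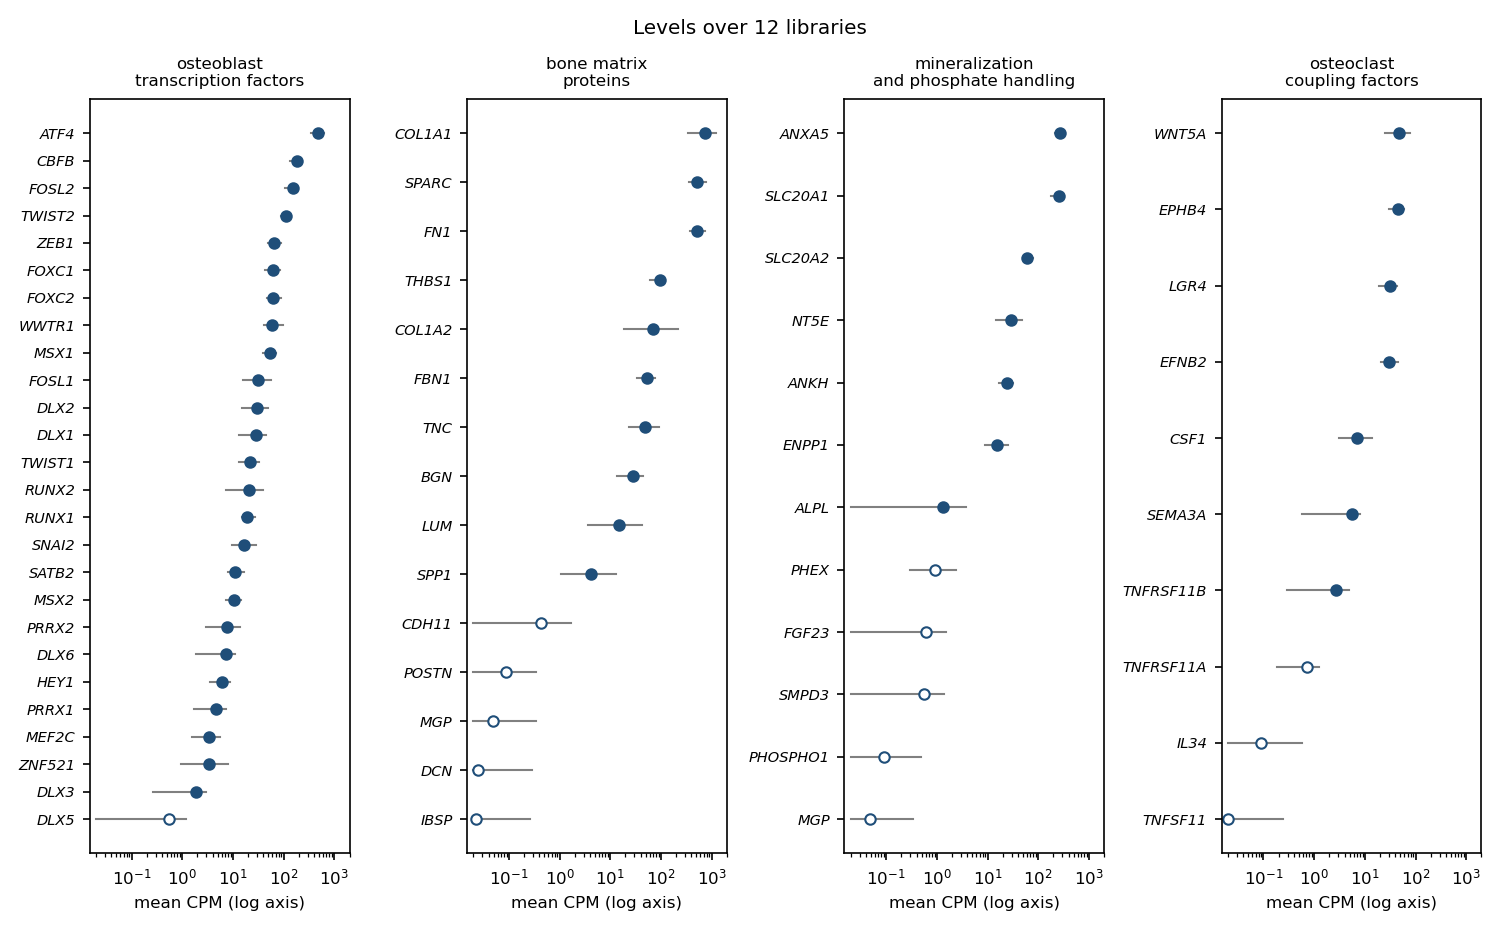
Mean CPM over 12 libraries on a log axis, with lines from the lowest to the highest library, for 4 gene lists, where open points are genes with too few counts to be tested and values below 0.02 CPM are drawn at 0.02. SPARC stands with COL1A1 and FN1 at the top of the bone matrix list, whereas ALPL and SPP1 are the lowest tested genes of theirs, and TNFRSF11B is the lowest tested coupling factor.

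Among the other DLX and MSX genes, DLX4 averaged 16.0 CPM, DLX6 7.29 CPM and DLX3 1.86 CPM, and DLX5, a known partner of RUNX2 in osteoblasts, had 0 to 6 counts per library and was not tested. Of the 7 tested members of both families, 6 had a negative and 1 a positive log2FC in upCIN85 versus Mock, with a median of -0.70 against 0.01 over all tested genes. In siCIN85 versus siNeg, 4 were negative and 3 positive, with a median of -0.03. No gene of these families passed the test in either comparison, but alternative fits of upCIN85 versus Mock called some. DLX1, DLX2 and MSX2 were called lower there with either replicate block, and DLX1 and DLX2 with no filter on low counts. DLX2 was also called in DESeq2 and in the fit of only the libraries compared.

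Of 25 tested osteoblast transcription factors, FOXC2, a forkhead factor of skeletal mesenchyme, fell in upCIN85 versus Mock (log2FC -0.65, SE 0.141, adjusted p = 0.0328), and 0 rose. Over all tested genes, 1.23% were called there. The Mock libraries were at 72.1, 89.5 and 72.6 CPM and the upCIN85 libraries at 47.6, 53.8 and 47.9 CPM, without overlap. The most abundant of these factors were ATF4 (479.6 CPM), CBFB, the binding partner of RUNX2 (181 CPM), and FOSL2 (152 CPM), none of which was called without the block. The median log2FC of the list was -0.04 in upCIN85 versus Mock and 0.24 in siCIN85 versus siNeg. In the latter, 0 of 25 were called, or 2 with the block in the knockdown, CBFB and FOSL1, both higher. The shares of all tested genes were 1.04% without and 3.42% with that block.

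Of 10 tested bone matrix genes, COL1A2 rose and BGN (biglycan, a small proteoglycan) fell in upCIN85 versus Mock. In that comparison 1.23% of all tested genes were called. COL1A2 was at 84.8, 44.8 and 41.9 CPM in Mock and at 160.3, 62.9 and 212 CPM in upCIN85 (log2FC 1.35, SE 0.314, adjusted p = 0.0439), with upCIN85 replicate 2 inside the Mock range. BGN was at 36.9, 35.3 and 32.6 CPM in Mock and at 20.1, 22.1 and 13.6 CPM in upCIN85 (log2FC -0.91, SE 0.211, adjusted p = 0.0439), without overlap. In siCIN85 versus siNeg 0 of 10 were called without the block, with 7 negative and 3 positive values and a median of -0.46, and with the block in the knockdown 4 of 10, SPARC, COL1A1, FN1 and FBN1, were called lower, against 3.42% of genes. COL1A2, whose siNeg and siCIN85 libraries did not overlap, had a log2FC of -1.26 (SE 0.363, adjusted p = 0.101; 0.0684 with that block, 0.00339 with a block in both experiments, 0.0094 in the fit of 6 libraries). COL1A1 had a log2FC of 0.56 in upCIN85 versus Mock (adjusted p = 0.165) and -0.71 in siCIN85 versus siNeg (adjusted p = 0.0903). FN1 (fibronectin), at a mean of 514 CPM, was called only with the block. DCN, MGP and POSTN, matrix proteins of bone and connective tissue, had at most 3 counts per library, as did IBSP.

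Of 7 tested genes of mineralization and phosphate handling, ALPL was called higher in upCIN85 versus Mock. ALPL passed the filter on low counts only through its upCIN85 libraries, so this call is no independent support for a difference. The call was also lost whichever library of that comparison was left out. ANKH, which carries pyrophosphate precursors out of the cell, rose in siCIN85 versus siNeg, from 16.7, 18.8 and 19.5 CPM to 28.6, 31.2 and 31.7 CPM (log2FC 0.73, SE 0.145, adjusted p = 0.0253). There, 1.04% of all tested genes were called. ANXA5 (266 CPM), SLC20A1 (254 CPM) and SLC20A2 (60.6 CPM), an annexin of matrix vesicles and the phosphate carriers PiT1 and PiT2, were the most abundant and were not called. PHOSPHO1, a phosphatase of matrix vesicles, had at most 3 counts per library.

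Of 7 tested osteoclast coupling factors, TNFRSF11B among them, none was called in either comparison without the block. With the block in the knockdown, EFNB2, an ephrin ligand, was called higher in siCIN85, against 3.42% of all tested genes. WNT5A (46.9 CPM), EPHB4 (44.7 CPM) and LGR4 (31.3 CPM) were the most abundant. TNFSF11, which encodes the RANKL that TNFRSF11B binds, and IL34 had at most 3 counts in every library.

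In the BMP list, 2 of 13 tested genes fell in upCIN85 versus Mock and 0 rose, where 99 of 12542 genes fell and 55 rose over the whole table. SMAD4, the common mediator of BMP and TGF‐β signals, was at 53.1, 56.4 and 71.4 CPM in Mock and at 25.7, 23.4 and 12.9 CPM in upCIN85 (log2FC -1.54, SE 0.297, adjusted p = 0.0187). SMAD9, a BMP receptor substrate, had a log2FC of -1.34 (SE 0.305, adjusted p = 0.0384). The Mock and upCIN85 libraries did not overlap for either gene, as for 20.7% of tested genes. With the block in the knockdown, BMPR2 was called lower in siCIN85, against 3.42% of all tested genes. SMAD5 (189 CPM), GREM1 (164 CPM) and BMPR2 (64.0 CPM) were the most abundant genes of the list.

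In the WNT list, SFRP1, a secreted inhibitor, rose in upCIN85 versus Mock, from 40.3, 38.7 and 34.5 CPM to 71.0, 56.5 and 81.8 CPM (log2FC 0.88, SE 0.142, adjusted p = 0.00596). It was the 1 called of 9 tested genes, against 1.23% of all tested genes. CTNNB1 (355 CPM) and LRP6 (44.3 CPM), the most abundant with SFRP1, were not called. Among 7 tested receptors and proteases of SPP1 and SPARC, ITGAV, the integrin subunit that binds SPP1, fell in siCIN85 versus siNeg from 204, 201 and 201 CPM to 91.7, 148 and 132 CPM (log2FC -0.71, SE 0.131, adjusted p = 0.0189). In that comparison 1.04% of all tested genes were called. CD44 (284 CPM) and ITGB5 (93.6 CPM) were not called.

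With 1 library fewer, calls were lost among all genes (25 to 89 in upCIN85 versus Mock against 154, except 260 without upCIN85 replicate 2) and also in these lists. SFRP1 kept its call in all 13 alternative fits, with a highest adjusted p of 0.0497. Leaving out any of Mock replicates 2 and 3 and upCIN85 replicate 3 ended the calls of COL1A2, BGN, FOXC2, SMAD4 and SMAD9, upCIN85 replicate 1 those of COL1A2, BGN, FOXC2 and SMAD9, and Mock replicate 1 those of BGN and FOXC2. The adjusted p then reached 0.253 for COL1A2, 0.219 for BGN, 0.178 for FOXC2, 0.135 for SMAD4 and 0.196 for SMAD9. With 1 library left out, the log2FC was 0.96 to 1.74 for COL1A2, -1.05 to -0.73 for BGN, -0.71 to -0.54 for FOXC2, -1.73 to -1.30 for SMAD4 and -1.67 to -1.07 for SMAD9. Leaving out siNeg replicate 1 or 2 or siCIN85 replicate 1 or 3 ended the calls of ANKH and ITGAV, with adjusted p up to 0.116 and 0.0738 and log2FC of 0.67 to 0.77 and of -0.87 to -0.53. In fits of only the 6 libraries compared, COL1A2 (adjusted p = 0.0568), ANKH (0.0668) and ITGAV (0.0714) did not pass, nor did COL1A2 in DESeq2 (0.0619) or BGN with at least 10 counts in every library (0.0519).

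**Figure D4:**
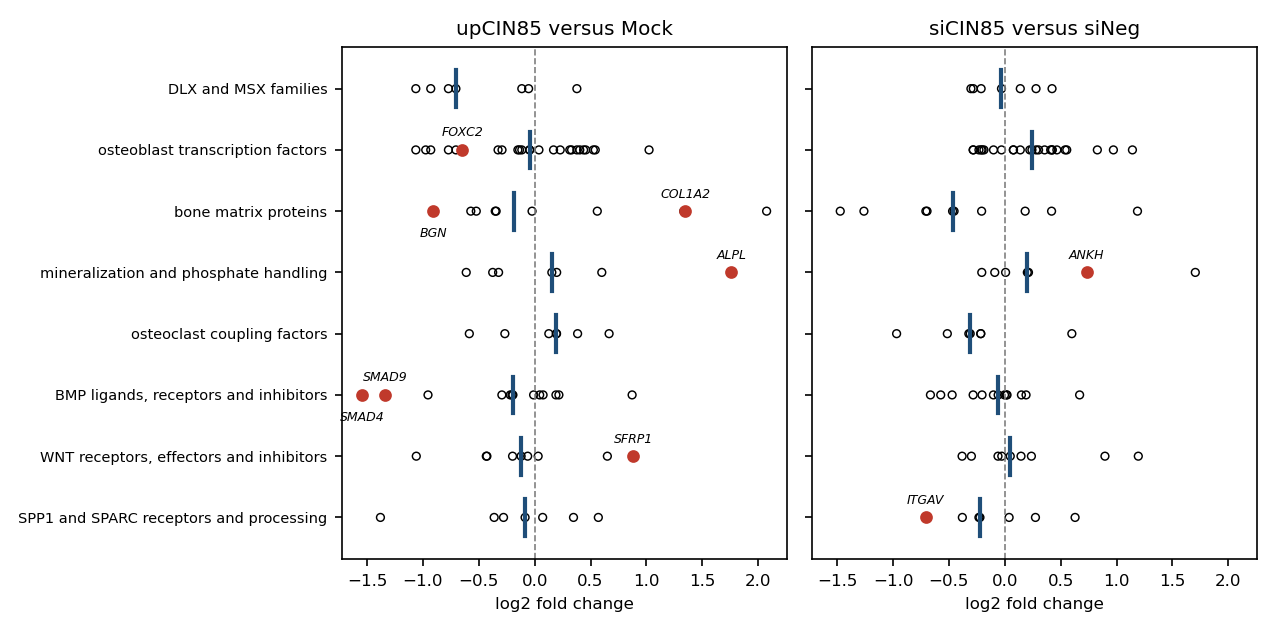
Log2FC of every tested gene of 8 gene lists in upCIN85 versus Mock (left) and siCIN85 versus siNeg (right), with blue bars at list medians and red, named points for an adjusted p below 0.05. The left panel names ALPL, COL1A2, SFRP1, BGN, FOXC2, SMAD4 and SMAD9, the right panel ANKH and ITGAV, and the DLX and MSX bar stands at -0.70 on the left and -0.03 on the right.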

How the data were processed

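The data are 12 RNA‐seq libraries of HOS cells, 3 in each of 4 groups taken from the labels. The QuantSeq FWD kit, which reads 3′ ends and adds molecular identifiers, was used with single‐end sequencing. The deposited values are raw counts per Ensembl gene, which the authors obtained with featureCounts and did not normalize. The submitters' processing notes name cutadapt 4.3, STAR 2.7.3a, Picard 2.25.6, Subread 2.0 and the GRCh38 build. Whether identifiers were collapsed, the strand setting and the annotation are not given in the sources used here. Symbols and positions came from GENCODE on GRCh38 (95 identifiers had no match), promoter windows from RefSeq.

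In R 4.3.3, edgeR 4.0.16 was used with filterByExpr (minimum count 10, minimum total 15), TMM factors and a quasi‐likelihood fit of 12 libraries with a mean per group and 8 residual degrees of freedom. Two‐sided p‐values were adjusted by Benjamini‐Hochberg over 12542 genes, with a threshold of 0.05. SE was approximated from log2FC and the F statistic, as their ratio with F under the root. The fit was tested on simulated data. Intervals of count ratios are exact binomial and cover counting error only. Alternatives used RLE factors, other filters, the libraries compared alone, replicate blocks, DESeq2 1.42.0 and each library left out.

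The replicate numbers come from the labels. Deviations of same‐numbered libraries correlated at 0.353, 0.269 and 0.446 in siNeg and siCIN85, and at 0.326, 0.227 and 0.0989 in Mock and upCIN85. The numbers were taken to pair the knockdown only, although the labels state no pairing and these ranges overlap. Correlations between libraries of different numbers were not computed.

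Named genes are the 9 members, SH3KBP1, from each list the genes called in either comparison, the 3 most abundant and defining markers with at most 3 counts per library, and the 3 genes most like a called member. DLX3, DLX4, DLX5, DLX6, CDH11, SUPT3H, FBN1, FOSL1 and EFNB2 were added after their values were seen. The members and lists were chosen with earlier results of these data known.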

Additional observations from a re-analysis of the deposited data

How the results depend on the processing

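RLE factors left every count of calls within 1.5 times its value. With no filter on low counts, 637 genes were called in upCIN85 versus Mock, 617 in siCIN85 versus siNeg, 376 in siNeg versus Mock and 554 in the difference of the effects, against 154, 131, 66 and 122, and 5, 1 and 1 members were called in the first 3 comparisons. With at least 10 counts in every library ALPL, SPP1 and TNFRSF11B were not tested, and 0 members were called in upCIN85 versus Mock. The replicate block in both experiments gave 1035, 968 and 918 genes in upCIN85 versus Mock, siCIN85 versus siNeg and the difference, and 6 and 1 members in the first 2. The replicate block in the knockdown only gave 545, 429 and 368 genes, and 6 and 1 members, with no other member call changed. Fits of only the libraries compared gave 281 genes and 2 members in upCIN85 versus Mock and 50 genes in siCIN85 versus siNeg. DESeq2 called 311, 298, 183 and 269 genes in the 4 comparisons and 2 members in upCIN85 versus Mock, and turned the ALPL difference of effects to -0.0097. The cause of these shifts was not tested.

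Leaving out 1 library at a time gave 25 (without upCIN85 replicate 3) to 260 genes (without upCIN85 replicate 2) and 0 to 1 members in upCIN85 versus Mock, and 9 (without siCIN85 replicate 1) to 362 genes (without siCIN85 replicate 2) and 0 to 1 members in siCIN85 versus siNeg. It gave 7 (without Mock replicate 3) to 134 genes (without siNeg replicate 3) in siNeg versus Mock and 33 (without upCIN85 replicate 3) to 341 (without upCIN85 replicate 2) in the difference. Among values with no call, the log2FC then crossed 0 for TNFRSF11B in upCIN85 versus Mock (-0.073 to 0.43). In siCIN85 versus siNeg it did so for RUNX2 (-0.57 to 0.17), DLX1 (-0.40 to 0.10), DLX2 (-0.52 to 0.071), MSX2 (-0.0043 to 0.32) and SMAD4 (-0.38 to 0.16), and in siNeg versus Mock for DLX1 (-0.44 to 0.063) and MSX1 (-0.15 to 0.15). The difference of effects crossed 0 for SPP1 (-0.042 to 1.55), ALPL (-0.81 to 0.63), SPARC (-0.043 to 0.31) and MSX1 (-0.23 to 0.077). At depths of 3540641 to 6049458 counts, 3 counts correspond to 0.49 to 0.868 CPM, close to the levels of ALPL.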
